A study of Mus musculus with 4 samples.

Results

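The 7 transcription factors followed here were taken as reticular identity factors of the bone marrow stroma: *Ebf1*, *Ebf2*, *Ebf3*, *Foxc1*, *Snai2*, *Tcf15* and *Prrx1*. They were matched by gene symbol, and all 7 were found among the 28006 features of the count tables. The cells were Cxcl12CE-tdTomato+ cells, sorted from *Cxcl12-iCreER*; *R26R*(tdTomato/+) mice in which Cre recombinase follows a *Cxcl12* bacterial artificial chromosome transgene and switches on the red reporter after tamoxifen. Every mouse carried both alleles, received tamoxifen 7 days before surgery and was killed 7 days after it. The ablated (ABL) femur had its marrow removed mechanically, and the contralateral (CONT) femur was left unoperated as the control. There was 1 library per femur side in each of 2 biological replicates, so 4 libraries in all; replicate 1 came from pooled mice and was made with Chromium version 2 chemistry, and replicate 2 with version 3. The age of the mice is not given in the labels used here. Hematopoietic cells were found in every library despite the sort on the reporter.

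Reticular cells, also called CXCL12-abundant reticular cells, wrap the marrow sinusoids and supply hematopoietic stem cells and B-cell precursors with CXCL12, stem cell factor and interleukin 7. EBF proteins are helix-loop-helix factors with an unusual zinc-binding DNA-binding domain: EBF1 commits lymphoid progenitors to the B lineage and also acts in fat and stromal cells, EBF2 acts in fat and osteoblast-lineage cells, and EBF3 keeps the marrow niche open. FOXC1 is a forkhead factor that reticular cells need to remain a niche and not to turn into fat. SNAI2 is a zinc-finger repressor of the Snail family that binds E-boxes, TCF15 (paraxis) is a basic helix-loop-helix factor of the somites, and PRRX1 is a paired-type homeobox factor of limb mesenchyme and skeletal progenitors.

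The genes lie on different chromosomes of GRCm38: *Ebf1* on chromosome 11 (44617317 to 45008091, plus strand), *Ebf2* on chromosome 14 (67233292 to 67430918, plus), *Ebf3* on chromosome 7 (137193673 to 137314445, minus), *Foxc1* on chromosome 13 (31806633 to 31812476, plus), *Snai2* on chromosome 16 (14705852 to 14709385, plus), *Tcf15* on chromosome 2 (152143561 to 152149097, plus) and *Prrx1* on chromosome 1 (163245119 to 163313710, minus). Promoter windows of 300 bases (250 before and 50 after the RefSeq start, GRCm38.p6) were found for 4 of the 7: *Ebf1*, *Ebf3*, *Foxc1* and *Prrx1*. Windows of 3 genes are printed because they contrast in the levels below: *Ebf3* and *Foxc1* were highest in reticular cells, and *Prrx1* was as high outside them. Capitals mark CG dinucleotides.
Ebf3 (chr7:137314396-137314695, minus strand): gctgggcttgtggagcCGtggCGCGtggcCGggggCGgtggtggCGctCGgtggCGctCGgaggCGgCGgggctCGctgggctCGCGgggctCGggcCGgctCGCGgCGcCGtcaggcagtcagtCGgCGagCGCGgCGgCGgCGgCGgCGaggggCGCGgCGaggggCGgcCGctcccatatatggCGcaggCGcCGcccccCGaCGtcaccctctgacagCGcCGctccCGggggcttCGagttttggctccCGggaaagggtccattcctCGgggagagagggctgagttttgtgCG
Foxc1 (chr13:31806396-31806695, plus strand): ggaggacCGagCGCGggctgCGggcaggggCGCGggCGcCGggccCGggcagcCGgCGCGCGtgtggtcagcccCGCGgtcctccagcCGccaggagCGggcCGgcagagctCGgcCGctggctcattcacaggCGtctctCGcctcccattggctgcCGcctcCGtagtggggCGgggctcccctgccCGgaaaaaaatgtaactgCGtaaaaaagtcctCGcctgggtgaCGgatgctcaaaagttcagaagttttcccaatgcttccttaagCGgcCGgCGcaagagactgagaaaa
Prrx1 (chr1:163313601-163313900, minus strand): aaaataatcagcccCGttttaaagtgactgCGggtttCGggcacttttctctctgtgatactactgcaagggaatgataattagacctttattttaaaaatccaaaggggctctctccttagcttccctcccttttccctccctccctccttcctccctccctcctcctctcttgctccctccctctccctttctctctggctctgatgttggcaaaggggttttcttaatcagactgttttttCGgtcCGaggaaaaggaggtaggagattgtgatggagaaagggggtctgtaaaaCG
The *Ebf3* window held 46 CG dinucleotides and 77% G or C, the *Foxc1* window 32 and 67.3%, and the *Prrx1* window 6 and 47.7%, beside medians of 7 and 52.7% over 32851 windows. As many CG dinucleotides or more were found in 1.65%, 9.52% and 56.4% of all windows, respectively. The 2 windows of *Ebf1* held 9 and 17. On both strands, the EBF palindrome (TCCC and GGGA with 2 bases between; 0.904% of all windows) and the forkhead motif GTAAACA (3.65%) had no match in any window of the 4 genes. The homeobox motif TAATTA (5.29%) matched once, in the *Prrx1* window, starting 173 bases before the start. The E-box CANNTG (72.3%) matched only in the second *Ebf1* window (chr11:44619978-44620277), at 2 positions.

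The libraries held between 22889380 and 44784072 UMIs (unique molecular identifiers, counts of captured transcripts), and 1459 to 3433 barcodes were called as cells. Their median depth was 5714 and 7338 UMIs in replicate 1, and 12895.5 and 12283 in replicate 2. Reticular cells alone were deeper in CONT than in ABL in replicate 2 (25395421 UMIs in 1889 cells against 2569316 in 322). In replicate 1 they were deeper in ABL (2016456 UMIs in 317 cells against 4861952 in 1018). The 2 libraries of replicate 1 shared 5 cell barcodes and those of replicate 2 shared 1. Reticular cells numbered 1018 (CONT) and 317 (ABL) in replicate 1, and 1889 and 322 in replicate 2, which was 78.4%, 45.8%, 92.0% and 17.8% of the mesenchymal cells. Their 8 marker genes (*Cxcl12*, *Adipoq*, *Lepr*, *Kitl* and others), none at 0, summed to between 29550 and 33030 UMIs per 1000000 (CPM) in the 4 libraries; the clusters were named from these markers, so the sum describes them and is no separate check. A UMI of *Xist*, the RNA of the inactive X chromosome, was found in 43.3% (CONT) and 75.4% (ABL) of reticular cells of replicate 1. In replicate 2 it was found in 71.7% and 0%, so these femurs did not hold the same mix of sexes. Over all mesenchymal cells of replicate 2, *Xist* was found in 71.9% (CONT) and 0.0553% (ABL). A Y-linked UMI with no *Xist* UMI was found in 25.0% and 63.7% of its reticular cells. Cells with *Xist*, as from female mice, thus made up most of CONT and almost none of ABL. The 2 sides of replicate 2 were not alike in the mice that gave their cells, and ablation and sex cannot be fully told apart there. A Y-linked UMI with no *Xist* UMI was found in 27.2% (CONT) and 12.3% (ABL) of reticular cells of replicate 1. The sexes were thus not evenly matched between the cells of its 2 sides either. In replicate 2, cluster 6 (38 CONT and 210 ABL cells) was mixed. Its leading genes were those of dividing cells, but at a finer resolution of 1.5 only 1 of the CONT cells and 67 of the ABL cells stayed in a cycling cluster, and the rest fell into an unnamed cluster led by *Ngp*, *Spp1* and *Acta2*. Cycling markers summed to 154.4 CPM in its CONT and 1118 CPM in its ABL cells, reticular markers to 16400 and 1959 CPM and neutrophil markers to 11090 and 1125 CPM, so its CONT and ABL values below are not of like cells. In the same replicate, the 11 CONT cells that clustered with joint-lining cells went against that name: Schwann cell markers summed to 21030 CPM and joint-lining markers to 243 CPM. In replicate 1, cluster 5 (133 cells, 54 of them CONT) was counted as periosteal, although *Prg4* led it. It scored higher as joint-lining (0.674) than as periosteal (0.587), but only 1 joint-lining marker was found in at least 10% of its cells.

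*Ebf1* was found in reticular cells of all libraries at nearly the same level. It stood at 723.8 (CONT) and 803.4 CPM (ABL) in replicate 1, and at 711.4 and 823.6 CPM in replicate 2. B-lineage cells were higher, with 2744 CPM the highest and 1482 the lowest of 3 libraries, and did not overlap with reticular cells. Pre-osteoblasts, named only in replicate 1, held 925 (CONT) and 707.8 CPM (ABL), a span that includes the reticular values. The mixed cluster 6 of replicate 2 held 745.1 (CONT) and 262.5 CPM (ABL), and the 193 ABL joint-lining cells held 595.5 CPM. Periosteal cells followed at 239.4 to 413.9 CPM, and osteoblasts at 64.9 to 115.3 CPM in 3 libraries, below the periosteal range. Chondrocytes, which had enough cells only in the ABL libraries, were at 15.5 and 17.5 CPM. In reticular cells, the 7 B-lineage markers summed to 40.7 CPM at most, against 6184 to 7556 CPM in B-lineage cells.

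*Ebf2* had its highest level in reticular cells, at 51.2 and 65.0 CPM (CONT and ABL, replicate 1) and 43.9 and 54.5 CPM (replicate 2). Pre-osteoblasts came next at 40.9 and 41.6 CPM, just under the lowest reticular value, and periosteal cells at 16.8 to 33.2 CPM lay below both. Joint-lining, osteoblast and chondrocyte sums reached at most 7.01 CPM.

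*Ebf3* was highest in reticular cells in each library where the classes could be compared. Its reticular levels were 363.2 (CONT) and 395.2 CPM (ABL) in replicate 1, and 614.2 and 505.6 CPM in replicate 2. Pre-osteoblasts held 256.3 (CONT) and 84.7 CPM (ABL), and the mixed cluster 6 held 361.3 and 41.8 CPM. Periosteal cells spanned 9.01 to 180.1 CPM. Osteoblasts did not exceed 13.9 CPM and the ABL joint-lining cells were at 5.25 CPM. B-lineage cells, rich in *Ebf1*, were at 17.8 to 26.1 CPM, within the 2.70 to 33.5 CPM of neutrophils.

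*Foxc1* was likewise highest in reticular cells, at 358.9 and 366.0 CPM (CONT and ABL, replicate 1) and 476.7 and 290.7 CPM (replicate 2). The mixed cluster 6 was at 284.9 (CONT) and 67.4 CPM (ABL). Pre-osteoblasts (245.2 and 211.1 CPM), periosteal cells (74.5 to 238.6 CPM) and endothelial cells (83.2 to 245.3 CPM in 3 libraries) overlapped with one another. Chondrocytes, at 90.6 and 101.6 CPM, held *Foxc1* although their *Ebf1* and *Ebf3* levels were low. No hematopoietic class exceeded 34.8 CPM.

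*Snai2* was found at 152.2 and 176.1 CPM in reticular cells of replicate 1 (CONT and ABL) and at 206.8 and 146.0 CPM in replicate 2. All other classes lay lower, among them pre-osteoblasts (70.6 and 87.6 CPM) and periosteal cells (19.5 to 91.6 CPM), whose ranges overlapped, and the mixed cluster 6 (136.4 and 40.0 CPM).

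*Prrx1* was not particular to reticular cells. Its reticular levels were 178.7 and 208.8 CPM (CONT and ABL, replicate 1) and 330.2 and 257.7 CPM (replicate 2). Periosteal cells held 240.1 to 464.5 CPM, pre-osteoblasts 308.3 and 135.0 CPM, and the mixed cluster 6 of replicate 2 352.3 and 274.3 CPM, and all of these ranges overlapped with the reticular one. Osteoblasts were lower, at 72.2 to 78.2 CPM. Endothelial cells were at 20.2 CPM or less.

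*Tcf15* was scarce in most classes. Reticular cells held 35.6 CPM (173 UMIs) in CONT replicate 1, 4.96 CPM (10 UMIs) in ABL replicate 1, 5.04 CPM (128 UMIs) in CONT replicate 2 and 2.72 CPM (7 UMIs) in ABL replicate 2. Endothelial cells were the only other named class above 10 CPM, at 40.3 CPM in CONT replicate 1 (18 UMIs), 2.45 CPM in CONT replicate 2 (1 UMI) and 18.3 CPM in ABL replicate 2 (18 UMIs). Endothelial markers summed to 33.9 CPM at most in reticular cells, against 5782 to 8325 CPM in endothelial cells. Osteoblasts, chondrocytes and joint-lining cells had 1.39 CPM or less. Empty droplets held 14.8, 2.31, 7.17 and 2.24 CPM of *Tcf15* (in the order CONT 1, ABL 1, CONT 2, ABL 2), so that the reticular level of CONT replicate 2 lay below that of free RNA.

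**Figure D1:**
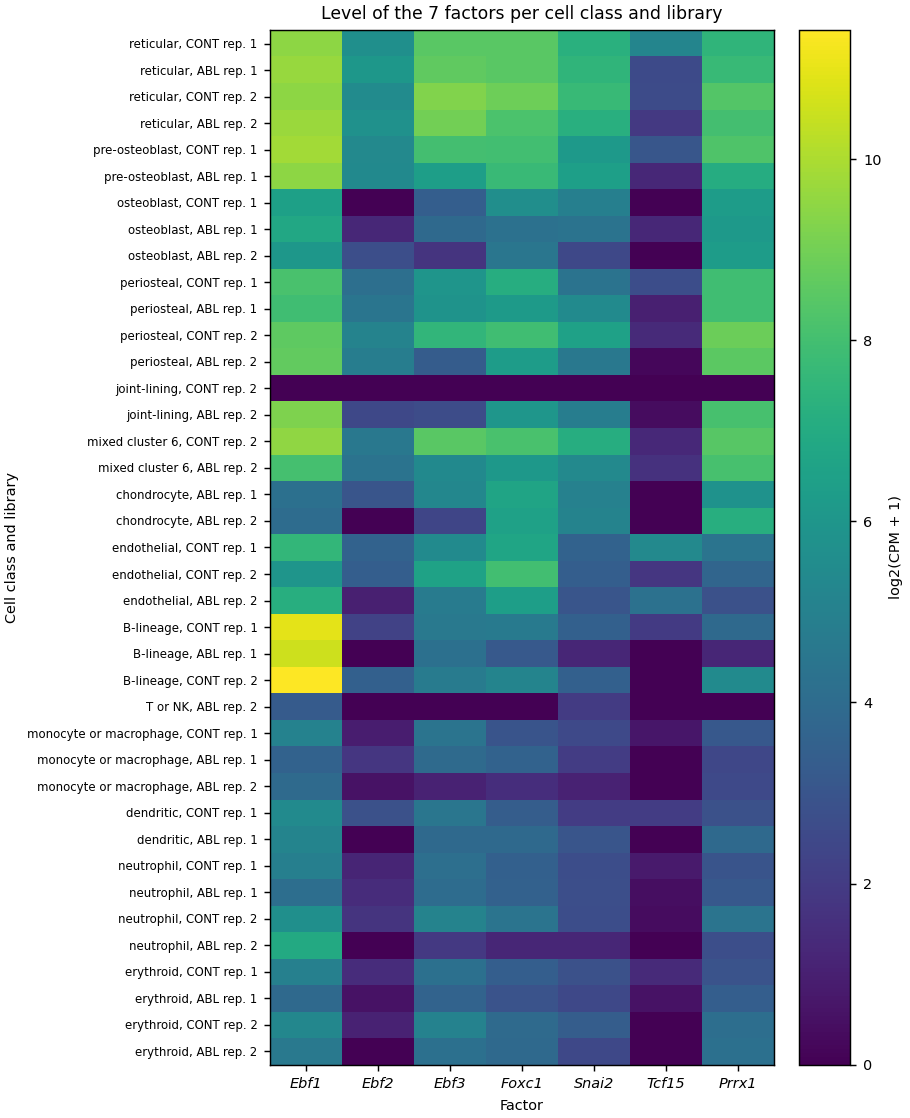
Level of each factor (columns, log2 of CPM + 1 as colour) in each cell class of at least 10 cells and each library (rows). *Ebf1* is brightest in B-lineage rows (1482 to 2744 CPM), *Ebf3*, *Foxc1* and *Snai2* are brightest in reticular rows, the mixed cluster 6 of replicate 2 holds unlike cells in CONT and ABL, and the wholly dark row is the group of 11 CONT replicate 2 cells with Schwann cell markers.

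To compare cells of unequal depth, each cell was thinned to 2000 UMIs before asking whether a factor was found in it. A UMI of *Ebf1* was then found in 73.5% to 78.0% of reticular cells in the 4 libraries, of *Ebf3* in 50.3% to 66.4%, of *Foxc1* in 38.5% to 56.2%, of *Prrx1* in 29.2% to 43.3%, of *Snai2* in 20.5% to 29.8%, of *Ebf2* in 7.76% to 11.04% and of *Tcf15* in 0.315% to 6.29%. Over all hematopoietic cells, taken as a guide to free RNA and not as its upper limit, the share was at most 4.29% for *Ebf3*, 2.45% for *Foxc1*, 1.69% for *Prrx1*, 1.23% for *Snai2*, 0.614% for *Ebf2* and 0.342% for *Tcf15*. The *Tcf15* share of ABL reticular cells in replicate 1 (1 of 317 cells, exact 95% binomial interval 0.00799% to 1.75%) lay below the highest of these, while its own library's hematopoietic share was 0%. The same cells were above the hematopoietic cells of their library at 1000 UMIs (1.26%, 4 cells, against 0%), without thinning (3.16% against 0.261%) and in level (4.96 against 0.267 CPM). *Foxc1* was found in 20.5%, 24.0% and 8.70% of endothelial cells (CONT replicate 1, CONT replicate 2 and ABL replicate 2), above its hematopoietic shares of 2.05%, 2.45% and 0.654% in the same libraries. *Ebf1* was found in 65.3% to 98.4% of B-lineage cells. By share, *Ebf2* and *Snai2* were not highest in reticular cells throughout. On only 32 periosteal cells of CONT replicate 2, *Ebf2* reached 12.5% and *Snai2* 31.25%, so counting error is wide. *Ebf2* reached 11.9% in pre-osteoblasts. Means over libraries were lower in these classes than in reticular cells. They were 6.29% (periosteal) and 8.225% (pre-osteoblasts) against 8.955% for *Ebf2*, and 12.36% (periosteal) against 25.28% for *Snai2*.

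Several factors were often found in the same reticular cell. At 2000 UMIs, a reticular cell held UMIs of a median of 2 or 3 of the 7 factors (means of 2.38 and 2.55 in CONT and ABL of replicate 1, and 2.79 and 2.46 in replicate 2), and 2.22% to 4.10% of reticular cells held none. Other mesenchymal cells held means of 1.48, 1.19, 2.02 and 0.996 factors in the same order of libraries, each below the reticular mean of its own library. *Ebf1*, *Ebf3* and *Foxc1* were found in the same cell in 18.3% to 29.5% of reticular cells, and in 0.273% to 13.1% of other mesenchymal cells. Factors found in many cells also meet in many cells. Whether this overlap went beyond what the separate shares give was not tested.

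**Figure D2:**
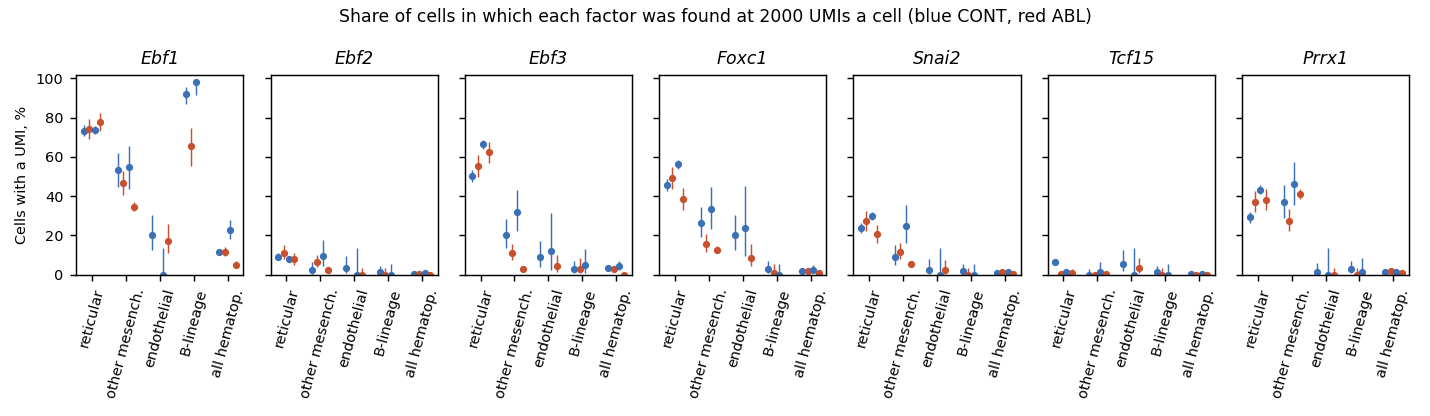
Share of cells with at least 1 UMI of each factor after thinning to 2000 UMIs (y axis, percent), by cell group (x axis); each point is a library (CONT blue, ABL red) with its exact 95% binomial interval. The reticular points of *Ebf3* (50.3% to 66.4%) lie above those of every other group, and those of *Prrx1* do not.

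Within the reticular cells, some factors were even and others graded. The clusters were built without these 7 genes and are given as a description; each is compared only where a library had at least 10 of its cells. The highest cluster held 1.27 to 1.62 times the *Ebf1* level of the lowest in each library, 1.28 to 1.63 times that of *Ebf3* and 1.19 to 1.90 times that of *Prrx1*. *Ebf2* varied 1.45 to 2.90 times, *Foxc1* 2.05 to 2.90 times and *Snai2* 2.89 to 4.81 times. *Tcf15* varied 2.02 to 3.54 times in 3 libraries and was at 0 CPM in a cluster of ABL replicate 2, on few UMIs. In CONT replicate 1, *Snai2* was at 98.0 CPM in cluster 0, which was led by the cytokine genes *Ccl2*, *Il6* and *Ccl7*, and at 282.9 CPM in cluster 2, which was led by heat-shock genes (*Hsph1*, *Hspa1b*, *Hspa1a*). In CONT replicate 2, heat-shock-led cluster 3 held 357.8 CPM of *Snai2* and 755.6 CPM of *Foxc1*, against 88.9 and 306.4 CPM in cluster 8. *Foxc1* and *Snai2* were highest in a heat-shock cluster in 3 of the 4 libraries each; in ABL replicate 2 both peaked in cluster 5, at 441.2 and 324.8 CPM. *Snai2* itself stood among the leading genes of both heat-shock clusters, and *Foxc1* among those of the second. Whether the handling of the cells had a part in these differences was not tested.

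**Figure D3:**
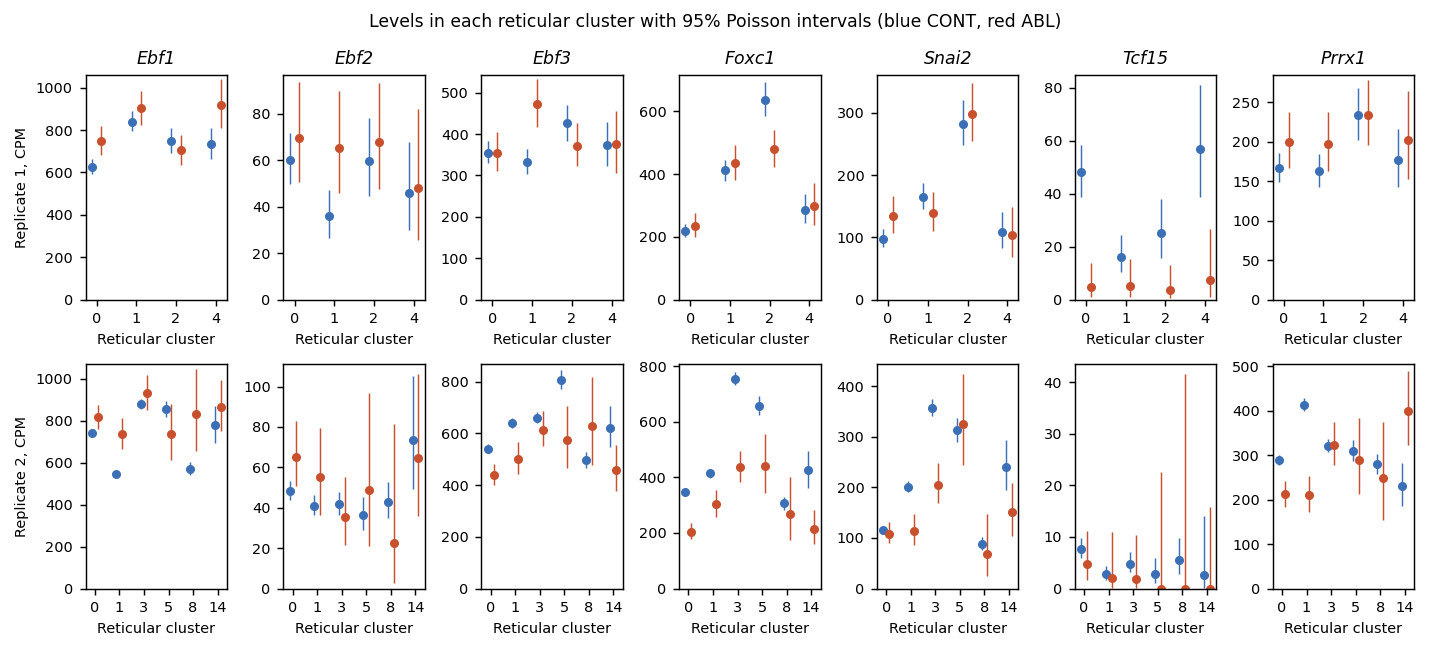
Level of each factor (CPM, y axis) in each reticular cluster (x axis) of replicate 1 (top) and replicate 2 (bottom), for CONT (blue) and ABL (red), with exact 95% Poisson intervals. *Snai2* and *Foxc1* rise in cluster 2 of replicate 1 and cluster 3 of replicate 2, and *Tcf15* is lower in ABL in all 4 and all 6 clusters.

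Marrow ablation was then examined within reticular cells, to ask whether cells that remain reticular 7 days later kept these factors. Only *Tcf15* passed the test: 1 of the 7 factors fell and none rose, where 1.54% of the 11113 genes tested were called lower in ABL, 1.93% higher and 3.47% in either direction. The calls rest on the replicate block, without which 0 genes passed. *Tcf15* fell by 2.23 on the log2 scale (SE 0.42, fitted fold 0.214, edgeR adjusted p = 1.37e-05). Its levels (35.6 to 4.96 CPM in replicate 1, and 5.04 to 2.72 CPM in replicate 2) do not have the same size of change: the CONT libraries differed from each other by more than ABL and CONT of replicate 2 did. Within single replicates, with a prior count of 2, the log2 difference was -2.95 and -0.89. The level was lower in ABL in all 4 reticular clusters of replicate 1 (48.0 and 4.75 CPM in cluster 0, and 57.1 and 7.38 CPM in cluster 4), and in all 6 of replicate 2, where ABL had 7 UMIs in total. Without passing, *Foxc1* was likewise lower in all 6 of replicate 2, and *Ebf2* and *Prrx1* higher in all 4 of replicate 1. Clusters of the same libraries are not replicates, so their direction is no separate support for the *Tcf15* difference. Leaving out CONT replicate 1, which needed a fit with no replicate block, brought the difference to -0.51 (adjusted p = 0.838). Among cells with a Y-linked UMI and no *Xist* UMI, *Tcf15* was at 51.5 and 9.15 CPM in replicate 1 (74 and 2 UMIs), and at 2.33 and 2.89 CPM in replicate 2 (15 and 5 UMIs), and the difference of -1.23 did not pass (adjusted p = 0.518). It passed in 10 of the 17 alternatives tested. Markers of blood cells also stood high in the reticular cells of CONT replicate 1: erythroid markers summed to 14520, 6775, 274.5 and 2282 CPM (in the order CONT 1, ABL 1, CONT 2, ABL 2) and neutrophil markers to 10400, 6397, 141.6 and 103.5 CPM. Over all hematopoietic cells of a library *Tcf15* did not exceed 1.15 CPM, but the empty droplets of CONT replicate 1 held more of it, as given above. With the estimated free RNA subtracted, reticular *Tcf15* stood at 37.5 (CONT) and 5.38 CPM (ABL) in replicate 1. In replicate 2 it then stood at 5.005 and 2.64 CPM. What part blood cells had in the *Tcf15* level of CONT replicate 1 was not tested, and free RNA was not tested beyond this subtraction. The fit gave every gene the variance of the trend at its level, so the unequal replicates of *Tcf15* do not enter its p.

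The other 6 factors did not pass the test in reticular cells, and the intervals leave room for moderate change. *Ebf1* differed by 0.06 on the log2 scale (95% interval -0.79 to 0.92, adjusted p = 0.983) and *Ebf2* by 0.21 (-0.28 to 0.71, adjusted p = 0.857). *Ebf3* differed by -0.20 (-0.98 to 0.58, adjusted p = 0.929) and *Prrx1* by -0.19 (-0.86 to 0.48, adjusted p = 0.919). *Snai2* differed by -0.27 (-0.88 to 0.35, adjusted p = 0.856). *Foxc1* had the lowest value of the 6, -0.46 (-1.20 to 0.28, adjusted p = 0.743). Replicate 1 alone gave -0.15 and replicate 2 alone -0.77. Before scaling, *Ebf1* and *Ebf2* were higher in ABL without overlap between the groups, as were 19.9% of all genes tested, and *Tcf15* was lower without overlap, as were 8.12% (28.0% in either direction). The groups overlapped for *Ebf3*, *Foxc1*, *Snai2* and *Prrx1*.

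**Figure D4:**
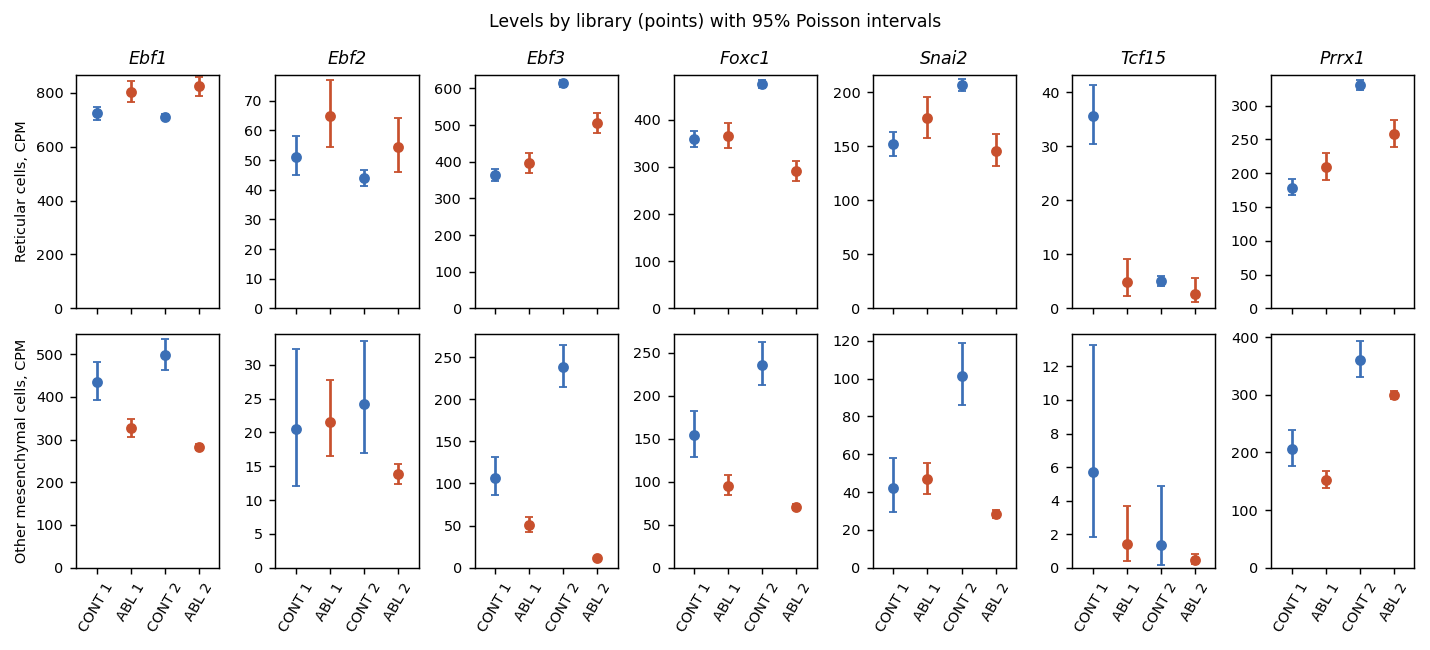
Level of each factor (CPM) in each library for reticular cells (top) and mesenchymal cells outside reticular clusters (bottom), with exact 95% Poisson intervals for counting error. *Tcf15* stands high only in CONT replicate 1 (35.6 CPM), and *Ebf3* outside the reticular clusters is lowest in ABL replicate 2 (11.7 CPM).

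Outside the reticular clusters, *Ebf3* fell, as 1 of the 6 factors tested; 2.75% of the 10396 genes tested were called lower in ABL, 0.991% higher and 3.74% in either direction. These cells numbered 133 (CONT) and 262 (ABL) in replicate 1, and 84 and 1468 in replicate 2. Their makeup differed: all 193 cells that were named joint-lining and carried its markers, and 347 cells of an unnamed cluster, came from ABL replicate 2. *Ebf3* was at 107.0 (CONT) and 50.8 CPM (ABL) in replicate 1, and at 238.6 and 11.7 CPM in replicate 2, so the groups did not overlap; 3 of the 6 factors (*Ebf1*, *Ebf3* and *Foxc1*) were lower in ABL without overlap, beside 21.5% of the genes tested (14.9% were higher and 36.4% either). The fitted difference was -2.66 (SE 0.58, fold 0.158, adjusted p = 0.000395), made up of -1.04 in replicate 1 and -4.19 in replicate 2. Here too the fit gave every gene the variance of the trend, so the unequal replicates do not enter this p. *Ebf3* passed in 12 of the 17 alternatives tested, and did not pass with no replicate block (adjusted p = 0.787) or when all variable genes were used for clustering (adjusted p = 0.0765). Of the 84 CONT cells of replicate 2, 38 lay in the mixed cluster 6. In periosteal cells alone, a choice made after the data were seen that also leaves out the 11 cells with Schwann cell markers, levels were 61.4 and 56.6 CPM in replicate 1, and 180.1 and 9.01 CPM in replicate 2. The fitted difference there was -2.28 (adjusted p = 0.00703), and nearly all of it lay in replicate 2. The periosteal class of replicate 1 took in the cluster led by *Prg4*, so the class may not be alike between the replicates.

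Reticular markers moved with *Ebf3* in these cells. Their sum was 6888 (CONT) and 3245 CPM (ABL) in replicate 1, and 11160 and 749.7 CPM in replicate 2, with none of the 8 at 0. Within periosteal cells it was 6276, 4310, 8776 and 933.2 CPM in the same order. Empty droplets of CONT replicate 2 held 512.3 CPM of *Ebf3*, and those of ABL replicate 2 held 89.6 CPM. With this free RNA subtracted, *Ebf3* outside the reticular clusters stood at 201.9 and 2.20 CPM in replicate 2, and the difference was -3.85. The part of reticular RNA in the *Ebf3* difference was otherwise not tested.

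The remaining factors did not pass outside the reticular clusters. *Foxc1* was at 153.7 and 95.4 CPM in replicate 1 and 235.9 and 70.0 CPM in replicate 2 (log2 difference -1.15, adjusted p = 0.315). The groups did not overlap. *Snai2*, at 42.1 and 46.8 CPM in replicate 1 and 101.5 and 28.2 CPM in replicate 2, differed by -0.82 (adjusted p = 0.551). *Ebf1* (-0.54, adjusted p = 0.829), *Ebf2* (-0.32, adjusted p = 0.881) and *Prrx1* (-0.27, adjusted p = 0.927) had smaller differences. *Tcf15* was too low to be tested, with between 2 and 10 UMIs in each library.

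Over all mesenchymal cells together, fewer reticular cells and less RNA per cell cannot be told apart, and the reticular share of these cells was itself lower in ABL. *Tcf15* fell (log2 difference -3.18, SE 0.52, adjusted p = 0.00516) as the only called factor, beside 0.855% of the 13689 genes called lower, 2.12% higher and 2.97% in either direction. *Ebf3* was at 318.8 and 207.0 CPM in replicate 1 and at 593.1 and 61.9 CPM in replicate 2 (-1.98, adjusted p = 0.163). *Foxc1* was at 315.6 and 208.0 CPM, and at 461.5 and 93.3 CPM (-1.49, adjusted p = 0.233). *Snai2* differed by -1.31 (adjusted p = 0.265), *Ebf1* by -0.74 (adjusted p = 0.658) and *Ebf2* by -0.67 (adjusted p = 0.516). *Prrx1*, at 183.2 and 172.2 CPM in replicate 1 and 329.1 and 295.0 CPM in replicate 2, had the smallest difference, -0.16 (adjusted p = 0.930).

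The difference between the effect in reticular cells and the effect outside them was tested directly for each factor, and 0 of the 7 passed (edgeR, interaction over 8 sums; 0.0173% of 11587 genes were called). *Ebf3* had the largest value, 2.41 (SE 0.73, unadjusted p = 0.0134, adjusted p = 0.410), and *Foxc1* followed the same direction with 0.63 (SE 0.25, unadjusted p = 0.0420, adjusted p = 0.482). *Ebf1* was at 0.55 (unadjusted p = 0.0609, adjusted p = 0.515), *Snai2* at 0.50 and *Ebf2* at 0.49. *Prrx1* was at 0.03 and *Tcf15* at -0.38. So 2 of the 7 were under an unadjusted p of 0.05, as were 10.0% of all genes tested. DESeq2 also called 0, with no adjusted p for *Tcf15*, whereas with no filter on low counts *Ebf3* passed (adjusted p = 0.00138). In the test as designed, the fall of *Ebf3* outside the reticular clusters was not shown to differ from its value within them.

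**Figure D5:**
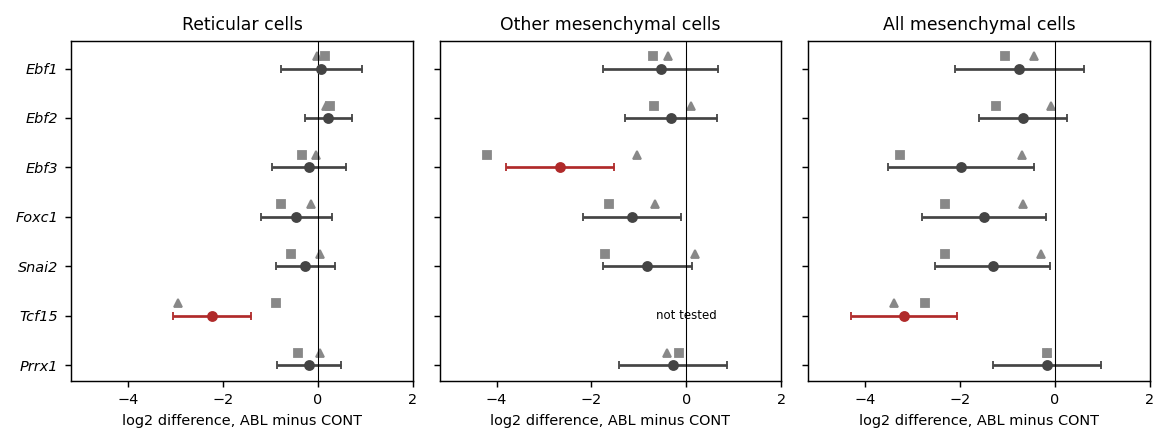
Log2 difference (ABL minus CONT, x axis) of each factor in reticular cells, other mesenchymal cells and all mesenchymal cells; circles are the fit with 95% intervals, red where the adjusted p is under 0.05, and grey triangles and squares are replicates 1 and 2 alone. Of the 7 reticular intervals, 6 include 0, and *Ebf3* passes only outside the reticular clusters.

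Genes related to the factors gave a mixed background in reticular cells, where 1.93% of all genes tested were called higher in ABL and 1.54% lower. Of 8 paralogues, 4 could be tested, and *Prrx2*, the sister gene of *Prrx1*, rose from 2.47 to 9.42 CPM (replicate 1) and from 1.61 to 10.5 CPM (replicate 2; log2 difference 2.27, adjusted p = 0.000325). The median of the 4 was 0.10, beside -0.01 over all genes. *Snai1*, the sister of *Snai2*, had 0.22 (adjusted p = 0.848), and the homeobox gene *Shox2* had -0.51 (adjusted p = 0.572). The reticular levels of *Prrx2* were low in every library. Free RNA was put at 9.171% (CONT) and 7.949% (ABL) of reticular UMIs in replicate 1, and at 0.876% and 11.99% in replicate 2. What part free RNA had in the reticular rise of *Prrx2*, or in those of *Id1* and *Sp7* below, was not tested. Outside the reticular clusters, 2 of the 5 paralogues tested rose, beside 0.991% of all genes tested. *Prrx2* went from 33.0 to 47.5 CPM (replicate 1) and from 29.6 to 171.7 CPM (replicate 2; 1.65, adjusted p = 0.0458), and the tendon factor *Scx* from 1.14 to 11.5 CPM and from 6.72 to 82.6 CPM (3.67, adjusted p = 3.32e-06). The CONT levels of *Scx* were low. In replicate 2, an unnamed cluster led by *C1qtnf3* and *Scx* held ABL cells only, so a change in makeup and a change per cell cannot be told apart.

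Among 16 cofactors and partners, 1 rose, 1 fell and 14 did not pass, with a median of -0.24. Over all genes tested in reticular cells, 1.93% were called higher in ABL and 1.54% lower. *Id1*, an inhibitor that titrates basic helix-loop-helix proteins, rose from 15.8 to 38.7 CPM (replicate 1) and from 7.01 to 43.6 CPM (replicate 2; 1.90, adjusted p = 4.89e-09). The corepressor gene *Tle4*, low in every library, fell from 5.35 to 2.48 CPM and from 12.3 to 2.72 CPM (-1.85, adjusted p = 0.0108). *Id4* had the lowest value of the better expressed members, -0.86, and did not pass (adjusted p = 0.203).

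The 20 reticular programme genes include all 8 reticular markers from which clusters were named, *Lepr*, *Gas6* and *Kitl* among them. Their values inside and outside the reticular clusters thus follow in part from the naming and are no separate check. Of the 20 genes, 2 fell, none rose and 18 did not pass in reticular cells (median -0.23), beside 1.54% of all genes called lower. The growth factor gene *Fgf7* fell from 260.6 to 160.2 CPM and from 322.2 to 131.2 CPM (-1.12, adjusted p = 0.0326). *Bmp6*, a bone morphogenetic protein gene, fell by 1.27 in the fit (adjusted p = 0.0115), although it was at 5.14 and 5.95 CPM in replicate 1 and at 43.6 and 12.5 CPM in replicate 2. The leptin receptor gene *Lepr* had -1.35 and *Gas6*, a ligand of TAM receptor kinases, had 0.36; neither passed (adjusted p = 0.12 and 0.891). Outside the reticular clusters 2.75% of all genes tested were called lower, and the median over all genes was -0.03. Of the 19 programme genes tested there, 9 fell, with a median of -2.07. Among them were *Il7* (-3.48, adjusted p = 5.99e-07), *Lepr* (-4.21, adjusted p = 0.000138) and *Kitl*, which encodes stem cell factor (-2.57, adjusted p = 0.00628).

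Of the lineage factors tested in reticular cells, *Sp7* was the only one that passed, beside 1.93% of all genes called higher there. None of the 6 adipogenic factors passed (median 0.02), with *Cebpa* at 0.13 and *Cebpb* at -0.67 (adjusted p = 0.946 and 0.692). Of 9 osteogenic factors, 7 were tested and *Sp7*, which directs osteoblast differentiation, rose from 9.46 to 51.1 CPM (replicate 1) and from 3.62 to 28.8 CPM (replicate 2; 2.61, adjusted p = 1.59e-15); *Atf4*, at -0.40, was the lowest of the better expressed ones (adjusted p = 0.759). Of 6 B-lineage factors other than *Ebf1*, *Tcf3* (0.27, adjusted p = 0.786) and *Foxo1* (-0.16, adjusted p = 0.904) were expressed enough to be tested, and neither passed. Over all mesenchymal cells, 2 of 6 paralogues, 1 of 16 cofactors and 2 of 8 osteogenic factors rose and 2 of 20 reticular programme genes fell. Of all genes tested there, 2.12% were called higher and 0.855% lower. Outside the reticular clusters, 1 of 16 cofactors (*Id4*) fell and 1 of 8 osteogenic factors (*Dlx3*) rose. Of all genes tested there, 2.75% were called lower and 0.991% higher. No adipogenic or B-lineage factor passed in either group of cells.

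The genes whose levels most resembled each factor were ranked over 36 class-by-library sums by Pearson's r of log2(CPM + 10); the sums share libraries and depth, and r is a description. *Ebf3* was most like *Il7* (r = 0.955), *Kng1* (0.952), *Kitl* (0.951), *Kng2* (0.9499) and *Grem1* (0.9499). *Il7* and *Kitl* encode the niche cytokines interleukin 7 and stem cell factor. *Foxc1* was most like *Trim2* (0.959), *Dlc1* (0.952), *Tgfbr3* (0.951), *Palld* (0.945) and the EBF partner *Zfp423* (0.941). *Ebf2* was most like *Pdgfrb* (0.941), *Mdk*, *Mme*, *Olfml2b* and *Podnl1*, and *Snai2* like *Rbms3* (0.949), *Adcy2*, *Dlg5* and *Pdgfrb*. *Prrx1* was most like the stromal genes *Colec12* (0.968), *Ddr2*, *Antxr1*, *Clmp* and *Evc2*. *Ebf1* reached only 0.861 (*Kansl1l*) and *Tcf15* 0.855 (*Hrct1*, before *Rgs4*, *Scgb3a1*, *Cldn11* and *Acy3*). Between the factors, r ranged from 0.141 (*Prrx1* and *Tcf15*) to 0.896 (*Ebf2* and *Snai2*), and *Ebf1* did not exceed 0.673 with any other.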

How the data were processed

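Cxcl12CE-tdTomato+ cells of 2 CONT and 2 ABL femur samples were profiled by droplet single-cell RNA-seq. The authors aligned reads to mm10 with reporter and recombinase sequences added, using Cell Ranger (software version 3.0.0 in the headers of the replicate 2 files; the version for replicate 1 is not given in the sources used here), and deposited raw UMI counts per feature for all barcodes, with no cell calling and no normalization. Seurat is also named in the submitters' processing notes.

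Cells were called here by the study's limits (v2: 500 genes and at most 20% mitochondrial UMIs; v3: 1000 genes and 15%) and a UMI minimum set per library (99th percentile over the 3000 barcodes with most UMIs, divided by 10). Libraries were clustered, and mesenchymal cells integrated per replicate, in Seurat 5.3.0 (R 4.3.3, 2000 variable genes, 30 components, 20 neighbours, resolution 0.8). The integration left out 185 listed and marker genes. The clustering of whole libraries left out only reporter and recombinase sequences. The factors and markers could therefore shape the choice of mesenchymal cells and the hematopoietic and endothelial classes. Clusters were named from markers, with naming rules set after the data were seen; clusters left unnamed that scored best as reticular count in neither group. Doublets were called by Scrublet (scanpy 1.11.5) only as an alternative; it marked 0.083% of cells in CONT replicate 2, so it did little there. UMIs were summed per library and cell group and tested in edgeR 4.0.16 (quasi-likelihood, TMM, filterByExpr, replicate as block, Benjamini-Hochberg over all genes tested, threshold 0.05). On simulated data it recovered 91 of 97 changes of log2 2 in reticular, 38 of 98 in other and 23 of 97 in all mesenchymal cells. For the difference between cell groups it recovered 37 of 100. Of changes of log2 1 it recovered 30 of 96, 0 of 97, 3 of 97 and 2 of 98 in that order. Changes of this size can thus fail to pass. Every simulated gene had the variance of the trend at its level, so these rates do not cover genes whose own spread departs from it. The block rests on the contralateral design, although in replicate 2 cells with *Xist* made up most of CONT and almost none of ABL. The sides of replicate 2 were thus not alike in the mice that gave their cells. The cells of replicate 1 were not evenly matched for sex either. CONT and ABL deviations correlated across genes (0.707 in reticular, 0.384 in other and 0.439 in all mesenchymal cells), and replicate and chemistry are the same term. P-values rest on the spread between these 4 libraries, shared at least in part over genes. In the main fits of reticular and other mesenchymal cells only the trend over genes was used, so a gene's own spread did not enter. Exact permutation of 2 against 2 libraries cannot give a two-sided p under 0.333, so single values were not tested. Intervals (exact Poisson for CPM, exact binomial for shares) cover counting error only. Genes were named as the 7 members and, in each list, the highest and lowest difference in reticular cells at 20 CPM or more and those past the threshold. The members and lists were chosen with earlier results of these data known. *Cebpd*, of the adipogenic list, was not used here. Part of the ranking of genes most like *Snai2* is not reported here. Coordinates are from GENCODE M21, promoter sequences from RefSeq (GRCm38.p6); both match the authors' build. Alternatives included DESeq2 1.42.0.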

Additional observations from a re-analysis of the deposited data

How the results depend on the processing

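The number of called genes depended on the block. Fitted in edgeR with no replicate block, 0 genes passed for reticular, 0 for other and 0 for all mesenchymal cells (314, 595 and 1235 at an unadjusted p under 0.05). Leaving out single libraries in that fit gave 0 to 11, 0 to 327 and 0 to 645, with 23 outside the reticular clusters without ABL replicate 2. Unblocked, *Tcf15* (-2.51 in reticular, -3.44 in all mesenchymal cells) and *Ebf3* outside the reticular clusters (-2.43) no longer passed. In reticular cells DESeq2 called 113 genes and male cells only, added later, 197, against 386; *Tcf15* passed in neither. In all mesenchymal cells (407) the counts were 891 with no TMM, 1203 with no filter on low counts, 642 by DESeq2, 809 with the study's filter alone, 692 with tdTomato UMI cells, 11 with free RNA subtracted (where *Tcf15* did not pass) and 1145 with male cells. Outside reticular clusters (389) DESeq2 called 101, all variable genes 231 (where *Ebf3* did not pass) and periosteal cells, added later, 223. For the difference between cell groups (2) the counts were 337 with no filter (where *Ebf3* passed, adjusted p = 0.00138), 78 by DESeq2, 1 at resolution 0.4, 1 with all variable genes, 1 with reticular cells taken by best score (added later), 0 with the study's filter and 0 with tdTomato UMI cells (886 and 1137 at an unadjusted p under 0.05). By DESeq2 (-1.95) and in male cells (-2.20) *Ebf3* passed in all mesenchymal cells, and in male cells so did *Snai2* (-1.84); *Foxc1* passed in none of the 17 settings tested there. Signs that turned were all of uncalled values. In reticular cells they were *Ebf1* with the study's filter (-0.016) and by best score (-0.021), and outside them *Ebf1* (0.0062) and *Ebf2* (0.040) in periosteal cells. For the difference between cell groups they were *Prrx1* with no filter (-0.061), resolution 0.4 (-0.038), the study's filter (-0.16), all variable genes (-0.043) and best score (-0.038), and *Tcf15* with all variable genes (0.33). Where libraries or replicates were left out, the reticular differences ranged from -0.029 to 0.15 for *Ebf1* (-0.023 without replicate 2), -0.54 to 0.21 for *Ebf3*, -0.56 to 0.036 for *Snai2*, -0.59 to 0.28 for *Prrx1* (0.051 without replicate 2) and -3.34 to -0.51 for *Tcf15*. In all mesenchymal cells *Prrx1* ranged from -0.70 to 0.38 (0.25 without ABL replicate 1). Outside the reticular clusters *Ebf2* ranged from -0.68 to 0.11 (0.0058 without ABL replicate 2), *Snai2* from -1.72 to 0.18, *Prrx1* from -0.83 to 0.23 (0.22 without ABL replicate 1) and *Ebf3* from -4.19 to -1.04. The difference between cell groups ranged from -0.10 to 1.01 for *Snai2*, -1.12 to 0.11 for *Tcf15* and -0.42 to 0.50 for *Prrx1*. The cause of these changes was not tested. Mean reticular levels stayed within 1 SD under the study's filter, free RNA subtraction and tdTomato UMI cells for all 7 factors. For *Tcf15* the SD (15.71 CPM) exceeds the mean (12.08 CPM), so this cannot show that its level was stable. With all variable genes, *Tcf15* in reticular cells of CONT replicate 1 was at 21.4 CPM, against 35.6 CPM in the main setting. Shares of cells depended on depth: *Ebf1* was found in 53.8% of reticular cells at 1000 UMIs and 96.9% unthinned. The most alike genes changed too, with 1 to 3 of 5 shared at log2(CPM + 1) and 0 to 3 over mesenchymal classes only. Male cells outside the reticular clusters were not tested, since CONT replicate 2 had 8. The *Tcf15* values in ABL rest on 10 and 7 UMIs, which limits that comparison.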

Other observations

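Clusters that could not be named held these factors too. In replicate 1, cluster 3 (207 cells, led by *Jchain* and *Cd74*, and scoring best as reticular) held 659.5 CPM of *Ebf1* in CONT and 548.7 in ABL, and 17.95 and 3.21 CPM of *Tcf15*. In replicate 2, cluster 9 (100 cells, led by *Zfp36*, *Socs3* and *Jun*, also scoring best as reticular) held 581.1 CPM of *Ebf3* in CONT and 132.0 in ABL. Cluster 4 of replicate 2 (347 cells, all from ABL, led by *Msmp* and *Fmod*) held 322.9 CPM of *Prrx1* and 72.7 CPM of *Foxc1*, beside 6.16 CPM of *Ebf3* and 63.9 CPM of *Ebf1*. Cluster 11 (56 cells, all from ABL, led by *C1qtnf3* and *Scx*) had a like order, with 256.4 CPM of *Prrx1* and 4.32 CPM of *Ebf3*. ABL joint-lining cells held *Ebf1* (595.5 CPM) with little *Ebf3* (5.25 CPM). These are values without a test.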
